A study of Homo sapiens with 6 samples.

Results

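The miR-99/100 and miR-125 families were examined through 9 mature miRNAs, which were taken by name from the 2588 mature human miRNAs of the deposited table. They are the 5p products hsa-miR-99a-5p, hsa-miR-99b-5p, hsa-miR-100-5p, hsa-miR-125a-5p and hsa-miR-125b-5p and the 3p products hsa-miR-99b-3p, hsa-miR-125a-3p, hsa-miR-125b-1-3p and hsa-miR-125b-2-3p, written below without the species prefix. All 9 were measured and all 9 passed the filter on low counts, as did 552 miRNAs in all. The cells were Huh7, an established human hepatoma cell line, of which 3 samples had received the plasmid carrying hsa_circ_0098181 (overexpression) and 3 the control plasmid (control), both by lipofection. RNA of all 6 samples was taken 48 h after transfection, so that every sample had gone through a transient transfection and no untransfected cells were compared. The labels do not say whether the samples of a group were separate cultures, and p-values then measure the spread between these samples, which may be technical.

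These miRNAs are transcribed together with let-7. The human genome has several clusters that each hold a miR-99 or miR-100 gene, a let-7 gene and a miR-125 gene, and the precursor is cut by Drosha and Dicer into a 5p and a 3p product, of which usually 1 is loaded into an Argonaute protein while the other is degraded. miR-125 is the vertebrate counterpart of lin-4, the worm miRNA that times development together with let-7, and LIN28, which blocks let-7 maturation, is a known target of miR-125. The miR-99/100 family is known to repress MTOR, the kinase that couples nutrients to growth, and both families have been described as altered in liver cancer.

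The mature sequences were matched by name in RefSeq (GRCh38.p14), which held all 9. The 5p products are shown first, since their shared seeds (bases 2 to 8, in capitals) define the 2 families.
miR-99a-5p: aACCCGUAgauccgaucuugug
miR-100-5p: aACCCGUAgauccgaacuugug
miR-99b-5p: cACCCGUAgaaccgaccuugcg
miR-125a-5p: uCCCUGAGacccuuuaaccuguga
miR-125b-5p: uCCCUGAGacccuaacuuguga
The 3p products carry 4 different seeds, so that no 2 of them share a seed.
miR-99b-3p: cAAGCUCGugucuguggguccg
miR-125a-3p: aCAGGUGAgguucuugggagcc
miR-125b-1-3p: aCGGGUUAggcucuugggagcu
miR-125b-2-3p: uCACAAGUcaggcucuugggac

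Counted from the 5′ end, miR-99a-5p and miR-100-5p differ by the single substitution U16A over 22 bases. miR-99b-5p differs from miR-99a-5p by A1C, U11A, U16C and U21C, all outside the seed. miR-125a-5p (24 bases) and miR-125b-5p (22 bases) share the first 13 bases. The mismatches allowed in the authors' mapping are not given in the sources used here, so that the split of reads between miR-99a-5p and miR-100-5p is uncertain. Among the other mature miRNAs of the table with a RefSeq sequence, miR-99a-3p has the seed of miR-99b-3p, and miR-4319 has the seed of miR-125. miR-4319 had 0 counts in all 6 libraries, where 3 counts, the limit that a count of 0 allows in a library, would be 0.278 to 0.420 TPM.

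The products come from 6 precursor genes in 3 places (GENCODE release 29, GRCh38). MIR99B (ENSG00000207550.1) occupies bases 51692612 to 51692681 of chromosome 19, plus strand, and MIR125A (ENSG00000208008.1) from 51693254 to 51693339, with MIRLET7E between them. Only 572 bases separate MIR99B from MIR125A, and both lie within an intron of the protein-coding gene SPACA6 on the same strand and over an exon of the non-coding SPACA6P-AS on the opposite strand. MIR99A (ENSG00000207638.1) is on chromosome 21 from 16539089 to 16539169 and MIR125B2 (ENSG00000207863.1) from 16590237 to 16590325, both on the plus strand in introns of the non-coding host gene MIR99AHG. MIR100 (ENSG00000207994.1) is on chromosome 11 from 122152229 to 122152308 and MIR125B1 (ENSG00000207971.1) from 122099757 to 122099844, both on the minus strand in introns of MIR100HG. The products of the last 2 clusters are far apart, with 51067 bases between MIR99A and MIR125B2 and 52384 bases between MIR100 and MIR125B1. miR-125b-5p is made with the same sequence from MIR125B1 and MIR125B2, so that its count cannot be divided between chromosomes 11 and 21, whereas the 3p products miR-125b-1-3p and miR-125b-2-3p name their precursor.

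The hairpins of the compact chromosome 19 cluster are shown with both products in capitals, because each of the 2 precursors gives a 5p and a 3p member. The first is chr19:51692612-51692681 and the next is chr19:51693254-51693339, both on the plus strand of GRCh38.p14.
MIR99B: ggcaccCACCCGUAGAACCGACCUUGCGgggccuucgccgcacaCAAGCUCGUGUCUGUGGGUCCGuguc
MIR125A: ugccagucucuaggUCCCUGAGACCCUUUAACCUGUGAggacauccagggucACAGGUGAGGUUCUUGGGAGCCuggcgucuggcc

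The libraries held 7144798 to 10786295 counts. The hepatocyte markers miR-122-5p, miR-192-5p and miR-194-5p summed to 366024 to 383951 TPM in the overexpression samples and 346700 to 372454 TPM in the controls. Of the 4 blood markers the sum was 12.9 to 13.8 and 16.7 to 18.9 TPM, of the 4 muscle and stroma markers 83.3 to 90.1 and 92.5 to 101 TPM, and of the 2 neuron markers 115 to 131 and 98.6 to 149 TPM, in the same order. miR-133a-3p, a muscle marker, had 3 counts over all libraries. The blood sums and the muscle and stroma sums did not overlap between the groups in TPM, and both were lower with hsa_circ_0098181. In TPM, 16.3% of all miRNAs tested were lower without overlap. The blood sum was mostly miR-142-3p (8.38 to 16.8 TPM), and the other sum mostly miR-143-3p (77.8 to 96.2 TPM). In edgeR the log2 fold changes were -0.50 for miR-142-3p, 0.45 for miR-223-3p and 0.46 for miR-150-5p. They were -0.023 for miR-143-3p, -0.30 for miR-145-5p and 0.090 for miR-1-3p. The part of these markers in the results was not tested. Control replicate 3 stood apart from its group, with a chi-square per degree of freedom of 157 and 121 against control replicates 1 and 2, while the other pairs within a group lay between 18.2 and 35.3. The fold changes and tested ratios of the members are also given without it.

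Levels are given in TPM, the deposited value, which is the count divided by the total of the sample and multiplied by 1e+06. Each read stands for a whole miRNA of 22 to 24 bases, so TPM was compared between members without a correction for length. Levels and ratios of different members below are therefore those of reads. Whether the libraries recovered all sequences equally was not tested. With hsa_circ_0098181 the 9 members took 1.73% ± 0.082 of all counts (SD, n = 3), and with the control plasmid 1.64% ± 0.193 (SD, n = 3). The miR-125 5p products made up most of this, with 1.40% ± 0.077 and 1.33% ± 0.158, and the 3 miR-99/100 5p products took 0.316% ± 0.0055 and 0.301% ± 0.037. Between 99.0% and 99.2% of the members' counts in a sample were on the 5p products.

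The order of the levels was the same in all 6 samples. miR-125b-5p was the highest, with 43.2% to 46.9% of the members' counts, and ranked 21 among all miRNAs of the table by mean TPM. It was followed by miR-125a-5p (rank 24), miR-99b-5p (rank 51), miR-99a-5p (rank 57), miR-100-5p (rank 120), miR-99b-3p (rank 145), miR-125a-3p (rank 240), miR-125b-2-3p (rank 296) and miR-125b-1-3p (rank 385). Over the 6 samples the ranges of neighbours in this order overlapped for miR-125b-5p and miR-125a-5p only, although miR-125b-5p was 1.15 to 1.37 times miR-125a-5p within each sample. The largest steps were from miR-99a-5p to miR-100-5p, 6.10 to 6.93 times, and from miR-99b-3p to miR-125a-3p, 3.93 to 6.81 times.

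**Figure D1:**
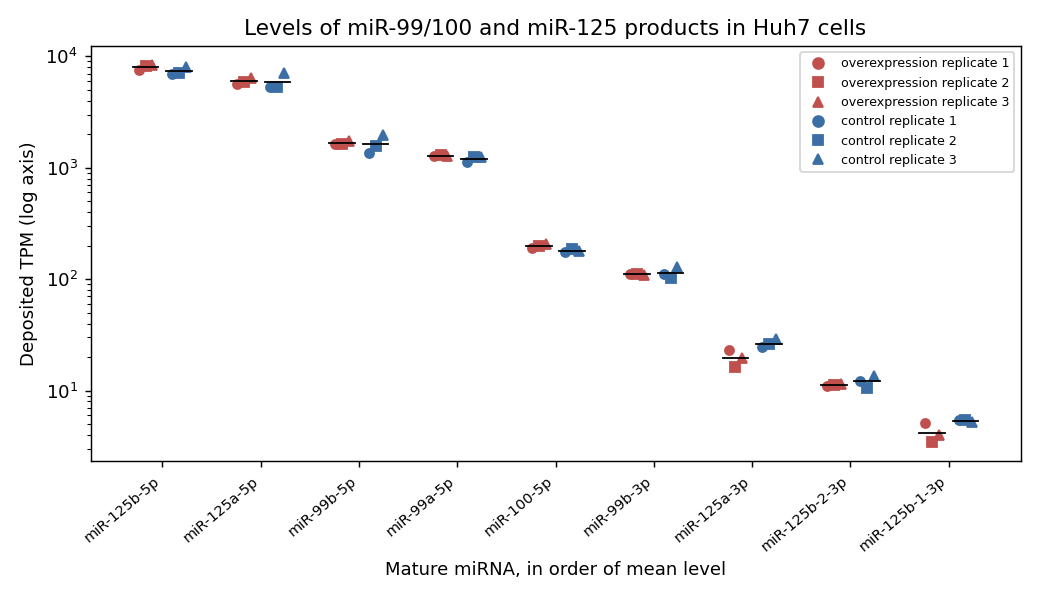
Deposited TPM (log axis) of the 9 members in each sample, in order of mean level. Red points are overexpression samples and blue points control samples, the marker shape gives the replicate, and black lines are group means. The levels run from 3.42 TPM for miR-125b-1-3p to 8392 TPM for miR-125b-5p. Control replicate 3 (blue triangle) is the highest control for miR-125b-5p, miR-125a-5p, miR-99b-5p, miR-99b-3p, miR-125a-3p and miR-125b-2-3p.

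In the comparison of the groups with the quasi-likelihood test of edgeR, 0 of the 9 members passed an adjusted p of 0.05, as did 0 of all 552 miRNAs tested (0%). At an unadjusted p under 0.05 there were 4 members, miR-125b-5p, miR-100-5p, miR-99a-5p and miR-125a-3p, and 9.06% of all miRNAs tested. This count of members depended on the scaling and on single libraries, and so did the count over all miRNAs tested. It was 1 with the library size alone (70 of all 552) and 2 with upper-quartile factors (44 of all 552). It was 0 without overexpression replicate 2 (27 of all 559), 2 without overexpression replicate 3 (37 of all 570) and 2 without control replicate 1 (50 of all 561). Without control replicate 3 it was 6, where 119 of all 565 miRNAs had an unadjusted p under 0.05. DESeq2 also called 0 members, with 3 unadjusted, and 0 miRNAs in all, with 41 unadjusted. All 5 of the 5p products had a log2 fold change above 0, with a median of 0.21, and 2 of the 4 3p products had, with a median of -0.12. Over all miRNAs tested 50.9% were above 0 and the median was 0.0038. These are miRNAs of all levels, and no share was taken for those as abundant as the 5p products. The scaling moved all miRNAs, because with the library size alone in place of TMM factors the median of all was -0.11, with 29.5% above 0. All 5 of the 5p products were still above 0 there, with a median of 0.090, and 0 of the 4 3p products were, since miR-99b-3p and miR-125b-2-3p turned to -0.037 and -0.11.

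Control replicate 3 decided the calls. Without it, 3 of the 9 members passed the adjusted threshold of 0.05, against 9.91% of the 565 miRNAs then tested (18 higher and 38 lower). These were miR-125b-5p (log2 fold change 0.25, adjusted p = 0.00606), miR-125a-5p (0.25, adjusted p = 0.00767) and miR-99b-5p (0.26, adjusted p = 0.0130) in edgeR, all higher with hsa_circ_0098181. In TPM, the 3 overexpression samples lay above both remaining controls for all 5 of the 5p products and 0 of the 4 3p products, as they did for 10.8% of the 565 miRNAs. Over all settings tried their adjusted p ran from 0.00606 to 0.847, from 0.00767 to 0.936 and from 0.0130 to 0.916, in the same order. The other 6 members kept their sign without control replicate 3, with 0.18 for miR-99a-5p, 0.21 for miR-100-5p, 0.11 for miR-99b-3p, -0.29 for miR-125a-3p, -0.32 for miR-125b-1-3p and 0.034 for miR-125b-2-3p, and were not called. Leaving out any other library gave 0 members.

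**Figure D2:**
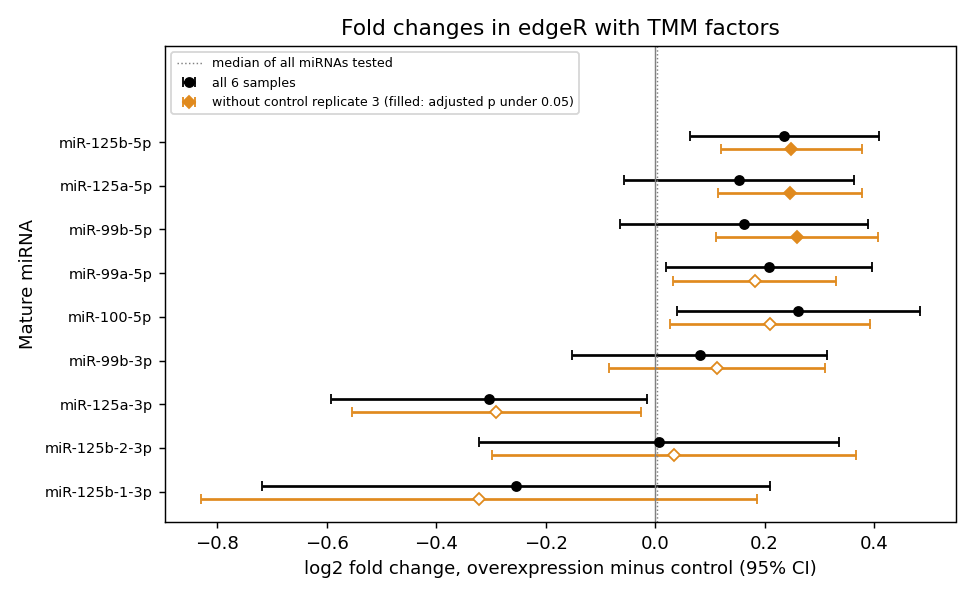
log2 fold change of each member (overexpression minus control) with its 95% confidence interval from edgeR, for all 6 samples (black) and without control replicate 3 (orange, filled where the adjusted p is under 0.05). The 5p products lie to the right of 0, from 0.15 to 0.26 with all samples, and miR-125a-3p lies at -0.30.

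miR-125b-5p, the product of both MIR125B1 and MIR125B2, was at 7538, 8109 and 8392 TPM in overexpression replicates 1 to 3 and at 6967, 7151 and 8060 TPM in control replicates 1 to 3. The groups overlapped in TPM, because control replicate 3 was above overexpression replicate 1. After TMM scaling they did not overlap, with 7566 to 8810 CPM in the overexpression group and 6931 to 7409 CPM in the control group. The fold was 1.18 (95% confidence interval 1.04 to 1.33), 0.24 on the log2 scale (SE 0.080, edgeR adjusted p = 0.314).

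miR-125a-5p shares this seed but comes from chromosome 19. It was at 5699, 5900 and 6392 TPM in overexpression replicates 1 to 3 and at 5305, 5276 and 7029 TPM in control replicates 1 to 3. All overexpression samples were above control replicates 1 and 2 and below control replicate 3. The log2 fold change was 0.15 (SE 0.097, edgeR adjusted p = 0.615), and it was 0.10 without control replicate 1, 0.084 without control replicate 2 and 0.031 with the library size alone.

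miR-99b-5p, the other 5p product of the chromosome 19 cluster, was at 1645, 1628 and 1745 TPM in the overexpression samples and 1347, 1579 and 1953 TPM in the controls. Control replicate 3 was again the highest of the 6 samples, and here control replicate 1 was the lowest. The log2 fold change was 0.16 (SE 0.11, edgeR adjusted p = 0.617), and it was 0.057 without control replicate 1 and 0.041 with the library size alone.

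miR-99a-5p, from MIR99AHG on chromosome 21, was at 1278, 1310 and 1266 TPM in the overexpression samples and 1115, 1256 and 1249 TPM in the controls. The groups did not overlap, but the gap was only between 1256 and 1266 TPM, and the log2 fold change was 0.21 (SE 0.087, edgeR adjusted p = 0.457). miR-100-5p, from MIR100HG on chromosome 11, was at 191, 200.5 and 208 TPM in the overexpression samples and 175, 186 and 180.3 TPM in the controls. These groups did not overlap either, and its log2 fold change, 0.26 (SE 0.10, edgeR adjusted p = 0.421), was the largest increase among the 9 members in this fit. In TPM, miR-99a-5p and miR-100-5p were the only 2 members whose overexpression samples all lay above the controls, where 1.99% of all miRNAs tested did. After TMM scaling these 2 and miR-125b-5p did, 3 of the 9 members, against 8.88% of all miRNAs tested.

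Among the 3p products, miR-99b-3p was at 112, 112 and 110 TPM in the overexpression samples and 112, 103 and 128 TPM in the controls, with 0.081 on the log2 scale (SE 0.11, edgeR adjusted p = 0.798). The overexpression samples lay within the range of the controls. miR-125a-3p had few counts, 186, 139 and 163 in the overexpression libraries and 263, 227 and 206 in the control libraries. It was at 23.3, 16.4 and 19.7 TPM against 24.4, 26.2 and 28.8 TPM, so that all overexpression samples were below all controls. The log2 fold change was -0.30 (95% confidence interval -0.59 to -0.015, SE 0.13, edgeR adjusted p = 0.507), the largest decrease among the members in this fit (without control replicate 3 that of miR-125b-1-3p was larger), while the 5p product of the same hairpin was at 0.15.

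miR-125b-1-3p, the 3p product of MIR125B1, was counted 41, 29 and 33 times in the overexpression libraries and 59, 47 and 37 times in the controls, which is 5.14, 3.42 and 3.98 TPM against 5.47, 5.42 and 5.18 TPM. The groups were separated in TPM only by the gap between overexpression replicate 1 and control replicate 3, and they overlapped after TMM scaling. The log2 fold change was -0.25 (SE 0.22, edgeR adjusted p = 0.698). miR-125b-2-3p, the 3p product of MIR125B2, was at 10.9, 11.3 and 11.5 TPM in the overexpression samples and 12.2, 10.6 and 13.6 TPM in the controls, with 0.0071 on the log2 scale (SE 0.15, edgeR adjusted p = 0.985). In TPM, 2 of the 9 members (miR-125a-3p and miR-125b-1-3p) had all overexpression samples below the controls, where 16.3% of all miRNAs tested did. After TMM scaling only miR-125a-3p did, 1 of 9, against 6.52% of all.

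The coefficient of variation of TPM over the 6 samples was 7.44% for miR-125b-5p, 11.4% for miR-125a-5p, 12.1% for miR-99b-5p, 5.41% for miR-99a-5p and 6.43% for miR-100-5p, where counting error alone gives 0.391%, 0.446%, 0.847%, 0.971% and 2.48%. For miR-99b-3p and miR-125a-3p it was 7.17% and 19.4%, where counting error alone gives 3.23% and 7.12%. For miR-125b-1-3p and miR-125b-2-3p, the members with the fewest counts, it was 17.9% and 9.25%, where counting error alone gives 15.6% and 10.0%. The spread was thus over 1.5 times the counting error for 7 of the 9 members and close to it for the last 2. These values pool both groups and were not tested. Counting error covers sampling of reads only, since no molecular identifiers are named.

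Within the control group, the members did not deviate together. After TMM scaling, control replicate 3 was above the mean of control replicates 1 and 2 by 0.32 on the log2 scale for miR-99b-5p and by 0.31 for miR-125a-5p, which 17.2% and 17.8% of all miRNAs tested exceeded. The 3p products of the same hairpins were above by 0.15 (miR-99b-3p) and 0.093 (miR-125a-3p), and let-7e-5p, whose gene lies between them, by 0.15. The 5p products of the other clusters were at 0.096 (miR-125b-5p), -0.019 (miR-99a-5p) and -0.098 (miR-100-5p), and the median of all miRNAs tested was -0.0045. Among the members, the deviation of control replicate 3 was largest for the 2 abundant chromosome 19 products, which were also among those called without it. Its cause was not tested.

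**Figure D3:**
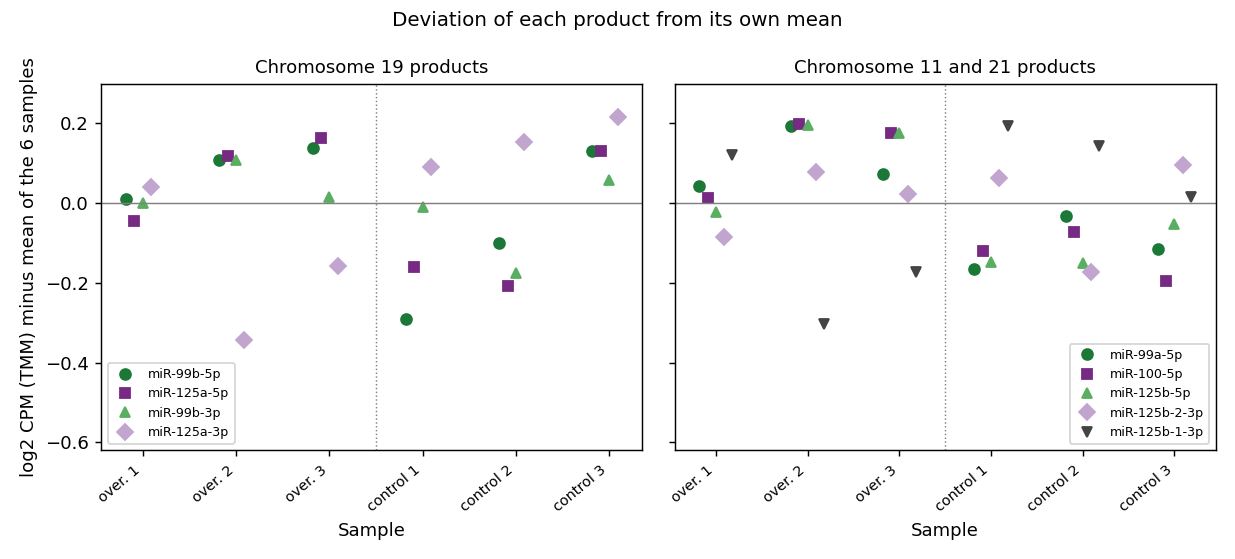
log2 CPM after TMM scaling of each member in each sample minus its mean over the 6 samples, for the products of the chromosome 19 cluster (left) and of the chromosome 11 and 21 clusters (right). On the left, miR-99b-5p and miR-125a-5p are at 0.13 in control replicate 3, close to overexpression replicates 2 and 3, while on the right miR-99a-5p, miR-100-5p and miR-125b-5p are below 0 in all 3 controls.

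Ratios of 2 products within a sample do not depend on the library size. In 6 pairs the groups were compared by two-sided exact permutation tests, where 3 samples against 3 cannot go below 0.1. For MIR99B the log2 ratio of the 5p to the 3p product was 3.91 ± 0.069 with hsa_circ_0098181 and 3.82 ± 0.20 with the control plasmid (SD, n = 3 each), a difference of 0.089 (exact permutation p = 0.8, adjusted over the 6 pairs 0.96) and of 0.15 without control replicate 3. For MIR125A the reads of the 5p product exceeded those of the 3p product far more. They were at 244, 358 and 324 times the 3p product in the overexpression samples and 217, 201 and 243 times in the controls. All overexpression samples were above all controls, overexpression replicate 1 and control replicate 3 nearly meeting, with a log2 difference of 0.47 (exact permutation p = 0.1, adjusted over the 6 pairs 0.6) and of 0.54 without control replicate 3. The 2 neighbouring precursors thus differed widely in the read ratio of their arms. Over the 6 samples the ratio of MIR99B was at most 15.9 and that of MIR125A at least 201.

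Between 5p products, the ratios differed between the groups by less than the SD of the control group. The log2 ratio of miR-99b-5p to miR-125a-5p was -1.84 ± 0.043 (SD, n = 3) with hsa_circ_0098181 and -1.86 ± 0.12 (SD, n = 3) with the control plasmid, a difference of 0.014 (exact permutation p = 1, adjusted 1) and of 0.018 without control replicate 3. The log2 ratio of miR-100-5p to miR-99a-5p, the near-identical pair from chromosomes 11 and 21, was -2.69 ± 0.070 and -2.74 ± 0.063 (SD, n = 3 each), a difference of 0.053 (exact permutation p = 0.4, adjusted 0.75) and of 0.026 without control replicate 3. The ratio of miR-125a-5p to miR-125b-5p was 0.756, 0.728 and 0.762 with hsa_circ_0098181 and 0.761, 0.738 and 0.872 with the control plasmid, with control replicate 3 above all others, and the log2 difference was -0.075 (exact permutation p = 0.5, adjusted 0.75). It was -0.0024 without control replicate 3. The 3p products of the miR-125b precursors stood at a log2 ratio of -1.43 ± 0.32 and -1.17 ± 0.21 (SD, n = 3 each), a difference of -0.27 (exact permutation p = 0.3, adjusted 0.75), and of -0.37 without control replicate 3, and reads of the MIR125B2 passenger product exceeded those of MIR125B1 in every sample. The ratio of miR-125b-5p to both 3p products together, computed after the values were seen and not tested, was 468 to 547 in the overexpression samples and 392 to 445 in the controls. How often other such ratios do not overlap was not computed.

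**Figure D4:**
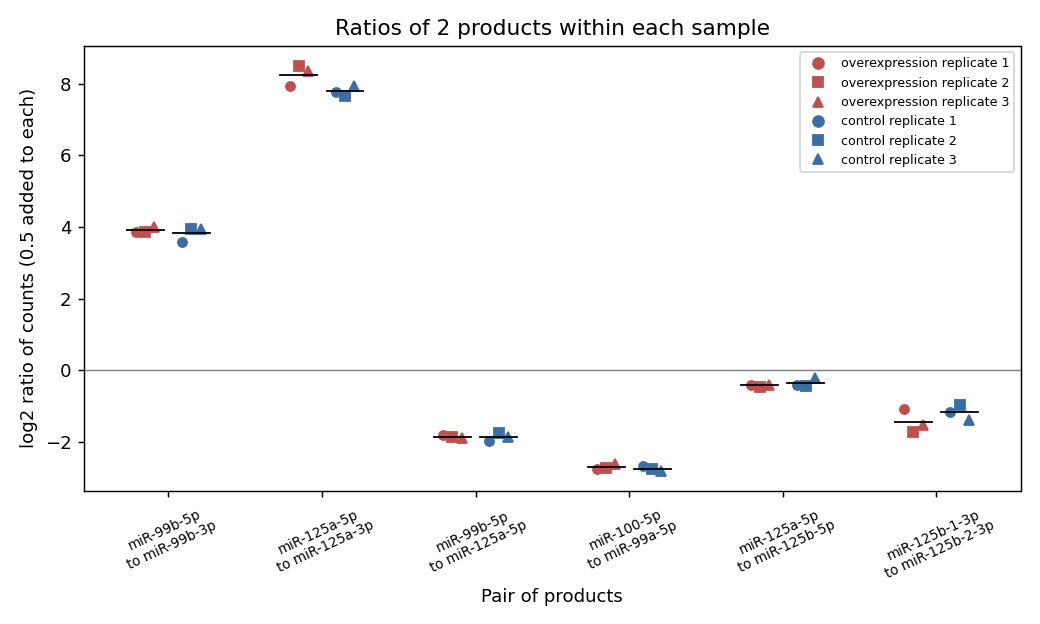
log2 ratio of 2 products within each sample, with 0.5 added to each count. Red points are overexpression samples, blue points control samples, and black lines group means. The groups overlap in 5 of the 6 pairs, and the arm ratio of MIR125A, around 8, is above that of MIR99B, around 4, in every sample.

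The other products of the 3 clusters were listed as partners: miR-99a-3p, miR-100-3p, let-7a-5p, let-7a-2-3p, let-7c-5p, let-7c-3p, let-7e-5p and let-7e-3p. Of these 8, 7 were tested, 0 rose and 0 fell at the adjusted threshold in edgeR (0 also unadjusted), and 3 had a log2 fold change above 0 and 4 below. let-7a-2-3p had 2 counts over all libraries. Without control replicate 3, 1 of these 7 was called, miR-100-3p, the passenger product of MIR100, which was lower with hsa_circ_0098181 (log2 fold change -0.61, edgeR adjusted p = 0.00177). Of all 565 miRNAs then tested, 9.91% were called, 18 higher and 38 lower. For miR-100-3p, control replicate 3 was at -0.80 on the log2 scale against the mean of control replicates 1 and 2, and 96.4% of all miRNAs tested lay above that value. The let-7 guide strands, which repress growth genes such as HMGA2 and RAS, had values of the other sign than the miR-99/100 and miR-125 5p products beside them, with log2 fold changes of -0.11 for let-7e-5p (adjusted p = 0.698), -0.16 for let-7c-5p (adjusted p = 0.617) and -0.15 for let-7a-5p (adjusted p = 0.581) in edgeR. Without control replicate 3 these were -0.079, -0.12 and -0.14. Above 0 in edgeR were let-7e-3p (0.65), miR-99a-3p (0.13) and let-7c-3p (0.070), with adjusted p = 0.584, 0.698 and 0.920. Without control replicate 3 these partners were at 0.74, 0.048 and 0.099. The 3p products of the let-7e and let-7c hairpins thus differed in sign from their guide strands. let-7e-3p had 99 counts over all libraries. let-7a-5p is also made from genes outside these clusters. Within each sample, the log2 ratio of let-7e-5p to miR-125a-5p was -3.04, -3.34 and -3.21 with hsa_circ_0098181 and -2.83, -2.92 and -3.04 with the control plasmid, and that of let-7c-5p to miR-99a-5p was -1.83, -1.69 and -1.51 against -1.24, -1.49 and -1.17. Both sets of overexpression values lay below all control values, with overexpression replicate 1 and control replicate 3 nearly meeting in the first ratio and overexpression replicate 3 and control replicate 2 in the other. The log2 differences were -0.27 and -0.38, and -0.32 and -0.31 without control replicate 3. The overexpression values of the ratio of let-7e-5p to miR-99b-5p also lay below all control values. Its log2 difference was -0.28, and -0.34 without control replicate 3. These ratios were chosen after their values were seen and were not tested. The share of other pairs of miRNAs without overlap was not computed.

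By the root-mean-square difference of log2 CPM (TMM, centred over the 6 samples) among 146 other miRNAs with a mean of at least 100 CPM, the patterns nearest to miR-125b-5p were those of miR-128-3p (0.028), miR-25-3p (0.040) and miR-191-5p (0.041), where the median was 0.16. Nearest to miR-99b-5p, the most abundant of the miR-99/100 seed, were miR-500a-3p (0.055), miR-92a-3p (0.056) and miR-30d-5p (0.058), where the median was 0.19.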

How the data were processed

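miRNA sequencing of 6 Huh7 samples (3 overexpression, 3 control, grouped by sample title) was used. The authors deposited counts of reads per mature miRNA and TPM values, which equal the count divided by the total of the sample and multiplied by 1e+06, to within 0.00303. The submitters' notes name TopHat2 2.0.9, Bowtie and hg38, and the miRNA annotation and the handling of reads matching several miRNAs are not given in the sources used here, which bears most on near-identical members. Counts were fitted over the whole table in R 4.3.3 with edgeR 4.0.16 (filterByExpr with a minimum count of 10 and a minimum total of 15, TMM factors, quasi-likelihood test, two-sided, Benjamini-Hochberg over 552 miRNAs, threshold 0.05). Standard errors are the log2 fold change over the root of its F statistic. The script was tested on data simulated with larger folds than those of the members. Whether changes as small as theirs would be called was not tested. Ratios had 0.5 added to each count. Depth was 7144798 to 10786295 counts, which limits the 3p products most. Alternatives were DESeq2 1.42.0, limma 3.58.1, other scalings and filters, a replicate block and leaving out each sample. Named were the 9 members, the other products of their clusters, miRNAs sharing a 5p member's seed, the 3 nearest patterns of the leading member of each seed, and the most abundant miRNA (miR-122-5p). The members and lists were chosen with earlier results of these data known.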

Additional observations from a re-analysis of the deposited data

How the results depend on the processing

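The number of members with an adjusted p under 0.05, 0 with edgeR and TMM factors, was 0 under every other scaling, filter and tool and 0 to 3 when each sample was left out in turn. For all miRNAs it was 3 with the library size alone, 6 without a filter, and 0 to 56 with a sample left out. Both upper values came without control replicate 3. The members below 0 were 2 of 9, but 4 with the library size alone, and 2 to 3 with a sample left out. Their median log2 fold change of 0.15 was 0.031 when scaled by library size and 0.070 when miR-122-5p was taken out of that size, where the median of all miRNAs was -0.11 and -0.075, and 0.084 to 0.20 with a sample left out. miR-125b-2-3p, at 0.0071, turned to -0.0036 with DESeq2, -0.11 with the library size alone, -0.070 with miR-122-5p taken out of it, -0.014 without a filter, -0.034 without overexpression replicate 2 and -0.081 without control replicate 2, and was at most 0.049 with a sample left out. miR-99b-3p turned to -0.037 with the library size alone. The members' share of counts was 2.59% (overexpression) and 2.39% (control) of counts without miR-122-5p, and 1.69% to 1.77% and 1.53% to 1.71% with a sample left out. The log2 difference in the arm ratio of MIR99B was -0.029 without control replicate 1, and that of miR-99b-5p to miR-125a-5p was -0.010 without overexpression replicate 1 and -0.047 without control replicate 1. With a sample left out, the ranges were -0.029 to 0.15 and -0.047 to 0.071 for these, 0.35 to 0.63 for the arm ratio of MIR125A, 0.013 to 0.087 for miR-100-5p to miR-99a-5p, -0.12 to -0.0024 for miR-125a-5p to miR-125b-5p and -0.45 to -0.13 for the 3p products of miR-125b. The causes were not tested.

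Whether the labels' replicate numbers pair the samples could not be decided with 3 samples per group. Deviations of same-numbered samples over 152 miRNAs correlated at -0.025, 0.15 and 0.24, and those of differently numbered samples at -0.27 to 0.20. Of 6 samples, 3 correlated best with their own number. With the replicate block, edgeR called 0 members and 0 miRNAs (3 and 42 unadjusted), and the members' median was 0.16.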

Other observations

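The ratio of miR-99a-5p to miR-99a-3p was 18.7, 16.8 and 19.2 with hsa_circ_0098181 and 15.5, 17.6 and 18.9 with the control plasmid. For MIR100 it was 14.9, 13.2 and 16.0 against 8.43, 8.10 and 13.6, where control replicates 1 and 2 were below every other sample and control replicate 3 was among the overexpression samples. miR-100-3p had 854 counts over all libraries and -0.38 as log2 fold change (SE 0.20, edgeR adjusted p = 0.581), and -0.61 without control replicate 3 (SE 0.14, edgeR adjusted p = 0.00177). These ratios were chosen after their values were seen and were not tested.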
